A study of Mus musculus with 6 samples.

Results

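The let-7 and miR-98 guide strands were described in small RNA libraries of epididymal white adipose tissue (WAT). Members were all miRNAs of the deposited table named let-7 or miR-98, leaving out names ending in -3p, which gave 9 of the 1983 listed. All 9 were above the floor of the table in 6 of 6 libraries, and thus passed the filter that 329 of the 1983 passed. The libraries came from 3 wild type (Wt) and 3 transgenic (Agt Tg) male C57BL6/J mice. The Agt Tg mice overexpressed angiotensinogen (Agt), the precursor of angiotensin II, in adipose tissue under the aP2 promoter. The sample labels give a chow diet for both genotypes, whereas the methods of the study give a low fat diet, and no ages are given for these mice. Agt mRNA is not measured in small RNA libraries, so the transgene could not be checked here.

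let-7 was among the first miRNAs found, in the timing of worm development, and its family is conserved from worms to mammals. Each member is cut from a hairpin precursor, 1 arm of which, the guide strand, is loaded into Argonaute, while the other, the passenger strand, is mostly degraded. The family represses growth and early developmental genes, among them Hmga2 and the insulin and IGF receptor pathway, and is held down by LIN28, which blocks the maturation of its precursors. In fat cells let-7 is known to increase as preadipocytes differentiate. miR-98 belongs to the family by its seed, the bases with which a miRNA mainly pairs with its targets.

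The mature sequences are shown to make clear how close the members are, since reads of near-identical miRNAs may be exchanged in counting. They are the mouse sequences of RefSeq (GRCm38.p6), matched by name for 9 of 9 members, 5′ to 3′, with the seed (bases 2 to 8) in capitals. The table uses human names, and its let-7c carries no arm and was matched to the mouse let-7c-5p.
let-7f-5p: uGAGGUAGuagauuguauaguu
let-7c: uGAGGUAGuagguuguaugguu
let-7a-5p: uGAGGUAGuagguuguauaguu
let-7g-5p: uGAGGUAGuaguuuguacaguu
let-7i-5p: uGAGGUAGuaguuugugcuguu
let-7b-5p: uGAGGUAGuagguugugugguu
let-7d-5p: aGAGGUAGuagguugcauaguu
let-7e-5p: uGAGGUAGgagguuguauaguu
miR-98-5p: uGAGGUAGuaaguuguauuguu
All 9 were 22 bases long with the same seed, and 14 of the 22 positions held 1 base in every member. Counted from 1 at the 5′ end, with the base of let-7a-5p first, let-7f-5p differed from let-7a-5p only by G12A, let-7c by A19G and let-7e-5p by U9G. let-7d-5p differed by U1A and U16C, let-7b-5p by A17G and A19G, miR-98-5p by G11A and A19U, and let-7g-5p by G12U and U18C. let-7i-5p was the farthest from let-7a-5p, with G12U, A17G, U18C and A19U. Of the 36 pairs of members, 4 differed at 1 base: let-7a-5p with let-7f-5p, let-7c and let-7e-5p, and let-7c with let-7b-5p. The sources used here do not state how many mismatches mapping allowed, so the split of reads within these pairs is uncertain. The seed was shared by 11 distinct mouse mature sequences of 1674 in RefSeq (0.657%), of which let-7k and miR-1961 were not listed in the deposited table. miR-202-3p, miR-4458 and miR-4500, known for an equal or similar seed, were at the floor in all 6 libraries.

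The members are encoded at 12 hairpins on 7 mouse chromosomes (RefSeq hairpins, GRCm38.p6, with host genes from GENCODE M21). On chromosome 13, minus strand, Mirlet7a-1 (chr13:48538179-48538272), Mirlet7f-1 (chr13:48537829-48537917) and Mirlet7d (chr13:48536012-48536114) overlap exons of the lincRNA 6720427I07Rik. On chromosome 15, Mirlet7c-2 (chr15:85706603-85706697) and Mirlet7b (chr15:85707319-85707403) are 621 bases apart, in exons of the transcript Lncppara. Mirlet7c-1 (chr16:77599657-77599750) lies in an intron of Mir99ahg, 656 bases from Mir99a. Mirlet7e (chr17:17830352-17830444) lies in an intron of Spaca6, between Mir99b and Mir125a. Mirlet7a-2 (chr9:41536716-41536811) lies in introns of the noncoding genes 3110039I08Rik and Gm49317, 5211 bases from Mir100, and Mirlet7g (chr9:106178840-106178927) in an intron of Wdr82. Mirlet7i (chr10:122985640-122985724) overlaps an exon of the transcribed pseudogene D630033A02Rik. Mirlet7f-2 (chrX:151912346-151912428) and Mir98 (chrX:151913214-151913321) both lie in introns of Huwe1, 785 bases apart. let-7a, let-7c and let-7f each have a pair of genes with the same guide strand, so that their copies could not be told apart.

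The deposited value of a miRNA is the log2 of its reads per 10000000 of the library total, and values under 10 reads per 10000000 had been raised to 10, the floor. The totals recovered from the values were, in the order of the replicates, 7480766, 7838874 and 9821467 for Wt and 10367417, 6387766 and 10562634 for Agt Tg mice. The least abundant member, miR-98-5p, had between 1791 and 4326 reads, and the most abundant, let-7f-5p, between 86591 and 193619, all far above the floor. The 9 guide strands are all 22 bases long, and how well each sequence was captured in the libraries was not tested.

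Wt replicate 2 stood apart from the other libraries before any comparison. The 11 miRNAs of a list for epididymis, testis and epithelium summed to 138567 reads per 10000000 there, and to 1726 and 1110 in Wt replicates 1 and 3 and 1662, 1036 and 1464 in the Agt Tg replicates. Of this list, 9 of 11 passed the floor in 1 library or more, miR-34c-5p was the most abundant, and miR-34b-5p and miR-429 were at the floor in all. The muscle list, led by miR-133a, also had its highest sum there, 1699 compared with 485 to 651 in the others, with miR-206 at the floor in all. The genotype differences of the strands, the arm ratios, the summed level and the neighbouring miRNAs, and the overlap of the shares, are therefore also given without Wt replicate 2. Of the adipocyte list, 7 of 8 miRNAs were above the floor in 6 of 6 libraries, led by miR-143-3p, and only miR-193b-3p was at the floor. Its sum ran from 744651 in Wt replicate 1 to 1033010 in Agt Tg replicate 3. Without miR-143-3p the other 7 summed to between 355121 in Wt replicate 2 and 464244 in Agt Tg replicate 3. miR-365a-3p (11.53, and no lower than 12.30 elsewhere) and miR-378a-3p (15.24, and 15.42 to 16.00 elsewhere) were lowest in Wt replicate 2. miR-107, between 9.69 and 10.23, was highest there. miR-143-3p (18.76) was exceeded only in Agt Tg replicate 3 (19.12). miR-103a-3p, miR-148a-3p and miR-26a-5p were neither highest nor lowest in Wt replicate 2.

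In WAT of both genotypes the family was led by let-7f-5p, let-7c and let-7a-5p. Together these made up between 74.0% and 79.1% of the reads on the 9 members. let-7f-5p ranked between 6 and 12 among all listed miRNAs in a library, and miR-98-5p, the lowest member, between 65 and 89.
let-7f-5p was at 16.88, 17.76 and 16.63 (log2 reads per 10000000) in Wt replicates 1, 2 and 3 and at 16.85, 17.05 and 17.48 in the Agt Tg replicates. let-7c, a member with genes on 2 chromosomes, was at 16.43, 17.56 and 16.58 in Wt and 16.33, 17.02 and 17.13 in Agt Tg mice. let-7a-5p, the reference of the sequence comparison, was at 16.14, 17.21 and 16.24 in Wt and 16.01, 16.88 and 16.94 in Agt Tg mice. In each of the 3, Wt replicate 2 was the highest library and the genotypes overlapped.
A middle tier held let-7g-5p, let-7i-5p, let-7b-5p and let-7d-5p. let-7g-5p was at 14.53, 15.36 and 14.34 in Wt and 14.54, 14.85 and 14.93 in Agt Tg mice. let-7i-5p was at 14.75, 15.21 and 14.41 in Wt and 14.71, 14.46 and 14.71 in Agt Tg mice. let-7b-5p was at 14.37, 14.78 and 14.56 in Wt and 14.14, 14.75 and 14.71 in Agt Tg mice. All 3 overlapped between genotypes, and the spread of let-7b-5p over the libraries was the smallest among the 9 members, at 0.64. let-7d-5p ran from 13.77 to 14.52 and let-7e-5p from 12.85 to 13.62. miR-98-5p, whose gene neighbours Mirlet7f-2, stood, in reads per 10000000, at 2394, 5061 and 2143 in Wt and 2478, 3781 and 4096 in Agt Tg mice, again with Wt replicate 2 on top and overlapping groups.

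**Figure D1:**
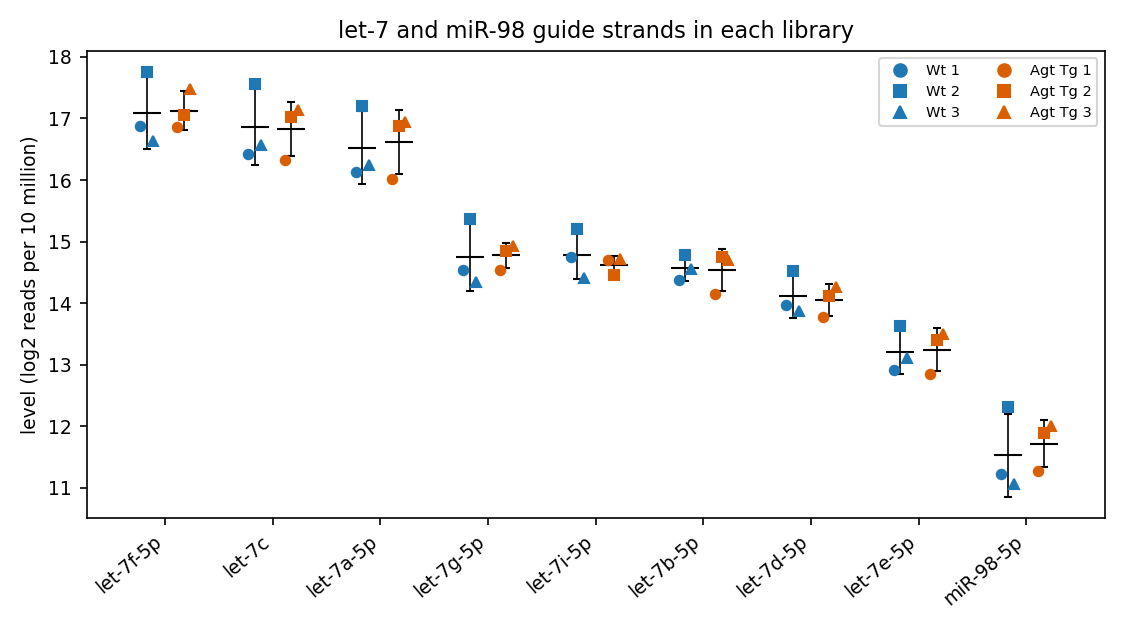
Level of each guide strand (log2 reads per 10000000) in the 3 Wt (blue) and 3 Agt Tg (orange) libraries, with mean and SD as bars and symbols for replicates. Members run from let-7f-5p, at up to 17.76, to miR-98-5p, at 11.07 and above, and Wt replicate 2 is the highest library for each.

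The order of the members by mean level was largely shared by the libraries. let-7f-5p lay above let-7c, and let-7c above let-7a-5p, in 6 of 6 libraries, though their ranges overlapped, and the smallest gap between let-7f-5p and let-7c was 0.03 in log2. let-7a-5p lay above let-7g-5p by 1.81 ± 0.23 (SD over 6 libraries), with ranges that did not overlap. let-7g-5p and let-7i-5p could not be ordered, each being higher in 3 of 6 libraries, and let-7i-5p was above let-7b-5p in 4 of 6. let-7b-5p was above let-7d-5p in 6 of 6 libraries with overlapping ranges. let-7d-5p was above let-7e-5p, and let-7e-5p above miR-98-5p, in 6 of 6 with no overlap.
Over all 6 libraries, shares of the summed level were similar in both genotypes. let-7f-5p held 30.1% ± 2.33 in Wt and 30.7% ± 3.17 in Agt Tg mice (SD, n = 3), let-7c 25.6% ± 2.09 and 24.9% ± 1.83, and let-7a-5p 20.3% ± 1.20 and 21.5% ± 2.87. miR-98-5p held 0.640% ± 0.064 in Wt and 0.720% ± 0.033 in Agt Tg mice. let-7b-5p held from 3.93% in Wt replicate 2 to 6.55% in Wt replicate 3, and let-7i-5p from 4.48% in Agt Tg replicate 2 to 7.44% in Agt Tg replicate 1. The shares of all 9 members overlapped between the genotypes. Without Wt replicate 2 those of miR-98-5p, let-7b-5p and let-7d-5p no longer overlapped, while those of the other members did. In the same libraries the levels of 130 of all 329 miRNAs (39.5%) did not overlap either, and the shares were not tested. miR-98-5p then held 0.631% and 0.581% in Wt and 0.689% to 0.754% in Agt Tg mice. let-7b-5p held 5.58% and 6.55% in Wt and 4.67% to 5.49% in Agt Tg mice. For let-7d-5p these were 4.21% and 4.05% in Wt and 3.43% to 3.89% in Agt Tg mice.

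The question put to the libraries by the study was which miRNAs of WAT differ when Agt is overexpressed there. No guide strand of the family was called between Wt and Agt Tg mice. limma, fitted over all 329 miRNAs that passed the filter (above the floor in 3 libraries or more), gave the members log2 fold changes (Agt Tg minus Wt) between −0.17 and 0.19. Of the 9 members, 0 had a Benjamini-Hochberg adjusted p under 0.05 in limma, 0 an unadjusted p under 0.05 and 0 passed the threshold of the study, read here as an unadjusted p of at most 0.05 with a log2 fold change of 1 or more in size. Among all 329, 0 (0%) had an adjusted p under 0.05, 16 (4.86%) passed the threshold of the study and 30 (9.12%) had an unadjusted p under 0.05. limma-voom also left 0 of the 9 members at either p. The groups did not overlap in 0 of 9 members and in 58 of 329 miRNAs (17.6%).
miR-98-5p had the highest log2 fold change, 0.19 (95% confidence interval −0.70 to 1.08, limma adjusted p = 0.811), and was above the Wt mean in 2 of 3 Agt Tg libraries. let-7i-5p had the lowest, −0.17 (−0.72 to 0.39, limma adjusted p = 0.759). let-7f-5p, the most abundant, had 0.04 (−0.71 to 0.79, limma adjusted p = 0.949), and the remaining members lay between −0.07 and 0.08. Changes of a size inside these intervals were not excluded with 3 mice a genotype.
The sign of such small values followed the scaling. On the deposited values 5 members were positive and 4 negative, whereas TMM scaling gave 8 and 1, and scaling to the reads on listed miRNAs 7 and 2. The median over all 329 miRNAs was −0.19 on the deposited values and −0.06 under TMM scaling. The members lay from 0.02 to 0.38 above that median, a distance that a scaling leaves as it is by construction. The median over the 74 miRNAs at least as abundant as the lowest member was −0.06 on the deposited values. let-7i-5p (−0.17) and let-7d-5p (−0.07) lay under it and the other members above it. With libraries left out, 6 of 9 members were above the median of all 329 without Wt replicate 1 and without Wt replicate 3. The count was 8 of 9 without Agt Tg replicate 2 or 3, and 9 of 9 without Wt replicate 2 or Agt Tg replicate 1.

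**Figure D2:**
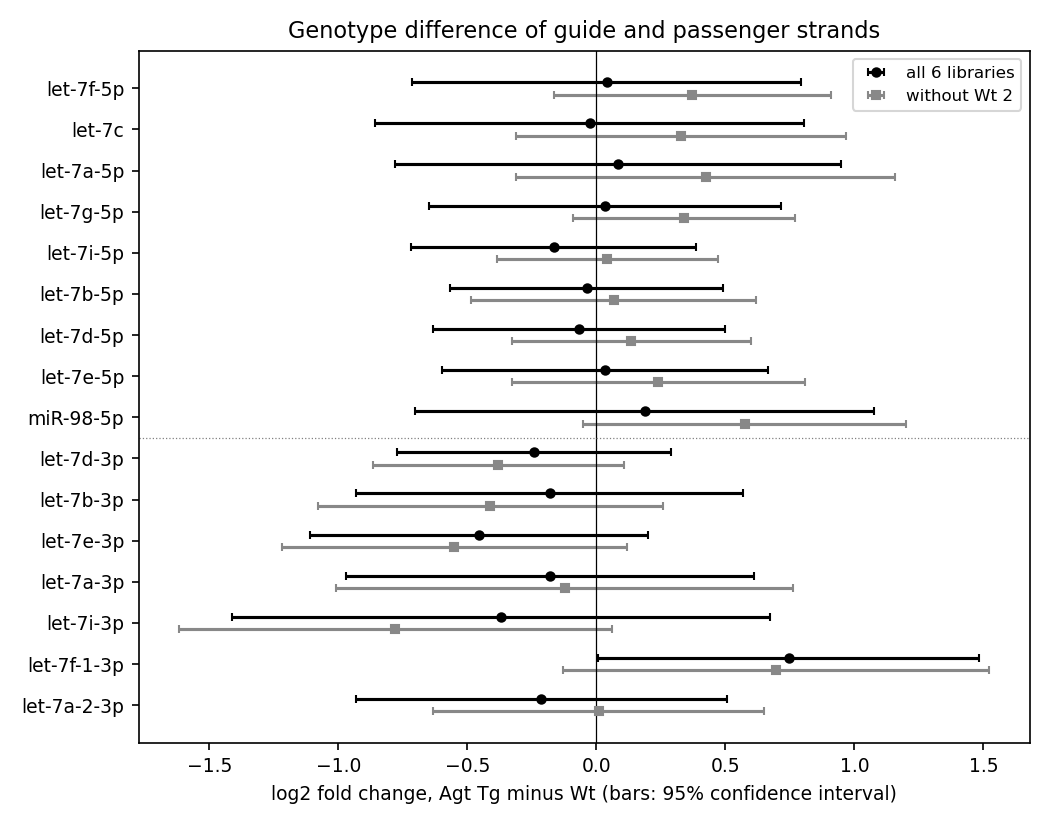
log2 fold change (Agt Tg minus Wt, limma) of the 9 guide strands (above the dotted line) and 7 passenger strands (below), with 95% confidence intervals, from all 6 libraries (black) and without Wt replicate 2 (grey). All 9 guide intervals from 6 libraries include 0, from miR-98-5p at 0.19 to let-7i-5p at −0.17.

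Without Wt replicate 2, all 9 members had positive log2 fold changes, from 0.04 for let-7i-5p to 0.57 for miR-98-5p. miR-98-5p then had a 95% confidence interval of −0.05 to 1.20 (limma adjusted p = 0.358), let-7a-5p a log2 fold change of 0.42 and let-7f-5p of 0.37. The groups, 2 Wt and 3 Agt Tg mice, no longer overlapped in 2 of 9 members, let-7g-5p and miR-98-5p, compared with 130 of 329 miRNAs (39.5%). Without Wt replicate 3 the direction was the opposite, with 0 of 9 positive and values from −0.35 to −0.02. The number of positive members was 1 without Wt replicate 1, 8 without Agt Tg replicate 1, 2 without Agt Tg replicate 2 and 1 without Agt Tg replicate 3.

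The 9 members rose and fell over the libraries, mostly but not always in the same direction, a pattern that was not tested. Their reads summed to 3.80%, 7.15% and 3.69% of the library total in Wt replicates 1, 2 and 3, and to 3.59%, 5.01% and 5.73% in Agt Tg replicates 1, 2 and 3. The 95% Wilson intervals, which cover counting error only, were at most 0.018 percentage points to either side. The highest library, Wt replicate 2, was thus 1.99 times the lowest, Agt Tg replicate 1, and 1.59 times remained between highest and lowest without it. The means were 4.88% ± 1.97 in Wt and 4.78% ± 1.09 in Agt Tg mice (SD, n = 3). The log2 difference of 0.01 between genotypes was far smaller than the SD of the log2 sums, 0.54 in Wt and 0.35 in Agt Tg mice. TMM scaling gave 0.14, scaling to the reads on listed miRNAs 0.07 and scaling to miR-191-5p 0.009, also under these SDs. On the deposited values without Wt replicate 2, the Wt mean was 3.74% and the log2 difference 0.33. It was −0.13 and −0.15 without Wt replicates 1 and 3, and 0.21, −0.03 and −0.13 without Agt Tg replicates 1, 2 and 3. In bulk tissue, fewer cells of a type and less RNA per cell cannot be told apart.
Each of the 9 members was highest in Wt replicate 2, as were 97 of the 329 tested miRNAs (29.5%). In Agt Tg replicate 3, 9 of 9 members were above their own mean over the libraries, and in Agt Tg replicate 2, 7 of 9. In Wt replicates 1 and 3 only 1 of 9 was above its mean, let-7i-5p and let-7b-5p respectively, and in Agt Tg replicate 1, 0 of 9. The median deviation of the members was −0.23, 0.60 and −0.30 in the Wt and −0.35, 0.17 and 0.26 in the Agt Tg libraries, while that of all 329 miRNAs lay between −0.20 and 0.11. Both genotypes therefore held high and low libraries. The members had a median range over the libraries of 1.02 in log2, compared with 1.11 for all 329 and 0.77 for the 74 miRNAs at least as abundant as the lowest member.
let-7g-5p and let-7c ran closest to the summed level, with root mean square distances of 0.09 and 0.10 after centring over the 6 libraries. let-7i-5p (0.28) and let-7b-5p (0.23) were the farthest. let-7i-5p was at its second lowest in Agt Tg replicate 2, where let-7a-5p was high. let-7a-5p and let-7c, which differ at 1 base, were the closest pair (0.08), but let-7c and let-7b-5p, also 1 base apart and from neighbouring genes on chromosome 15, were 0.26 apart.

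**Figure D3:**
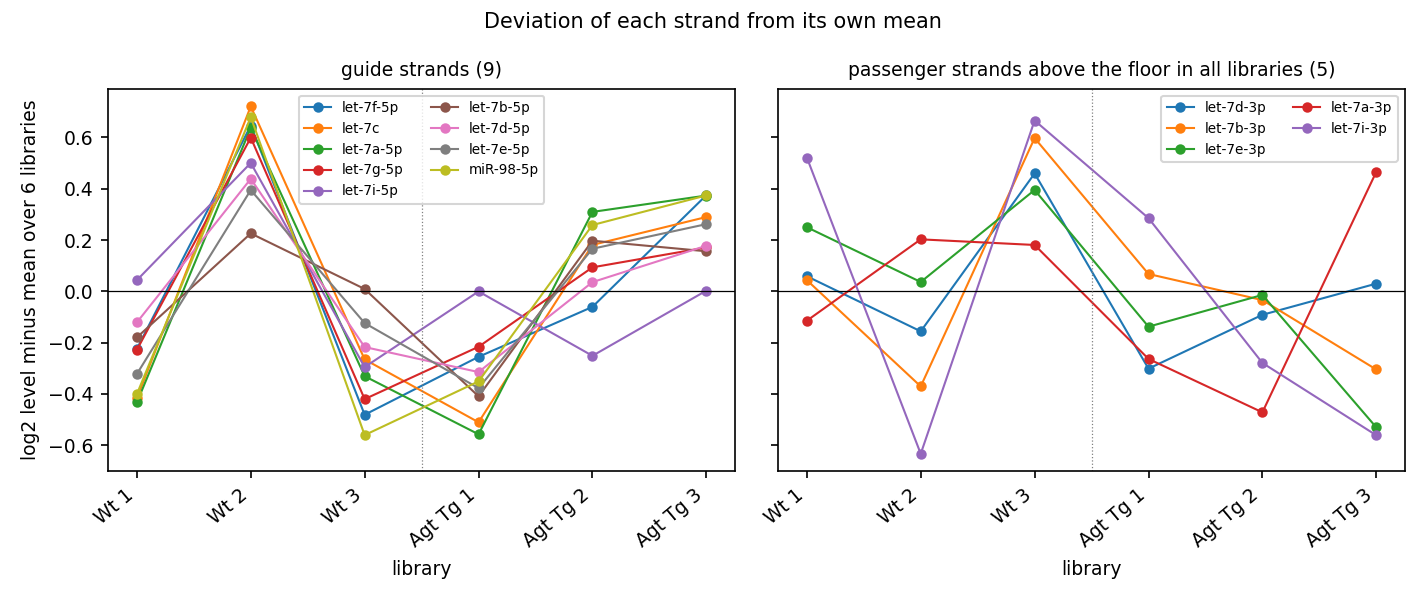
log2 level of each strand minus its own mean over the 6 libraries, for the 9 guide strands (left) and the 5 passenger strands above the floor in all libraries (right), with lines joining the values of 1 strand. The guides peak together in Wt replicate 2, with a median of 0.60, where let-7i-3p has −0.63.

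The marker lists moved over the same libraries. Wt replicate 2, the highest for the family, had the highest sum of the epididymis, testis and epithelium list, but Agt Tg replicates 2 and 3, the next highest, had 1036 and 1464 reads per 10000000 of it, compared with 1110 to 1726 in the remaining libraries. The sum of the blood cell list, with 7 of 7 miRNAs above the floor in all libraries and led by miR-486-5p, was lowest in Wt replicate 2. It came to 211933, 92358 and 218842 in Wt replicates 1, 2 and 3, and to 245995, 141555 and 120658 in the Agt Tg replicates. This order was that of miR-486-5p, and the other 6 summed to 46591, 44421 and 47899 in Wt and 44169, 37695 and 32923 in Agt Tg mice. Among them, miR-142-3p was highest in Wt replicate 2 (9.63), miR-451a in Agt Tg replicate 2 (12.68) and miR-144-3p in Agt Tg replicate 3 (8.33). Agt Tg replicates 2 and 3 were the lowest libraries for miR-142-5p, at 13.14 and 12.88, compared with 13.93 or more elsewhere. They were also lowest for miR-223-3p (9.05 and 9.21, and 9.68 or more elsewhere) and miR-142-3p (7.62 and 7.998, and 8.60 or more elsewhere). miR-150-5p was lowest in Agt Tg replicate 1 (14.21), and miR-451a and miR-144-3p in Wt replicate 2 (11.30 and 6.91). The liver miRNA, miR-122-5p, was at 74.9 to 145 reads per 10000000. The part of these lists in the levels of the family was not tested.

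**Figure D4:**
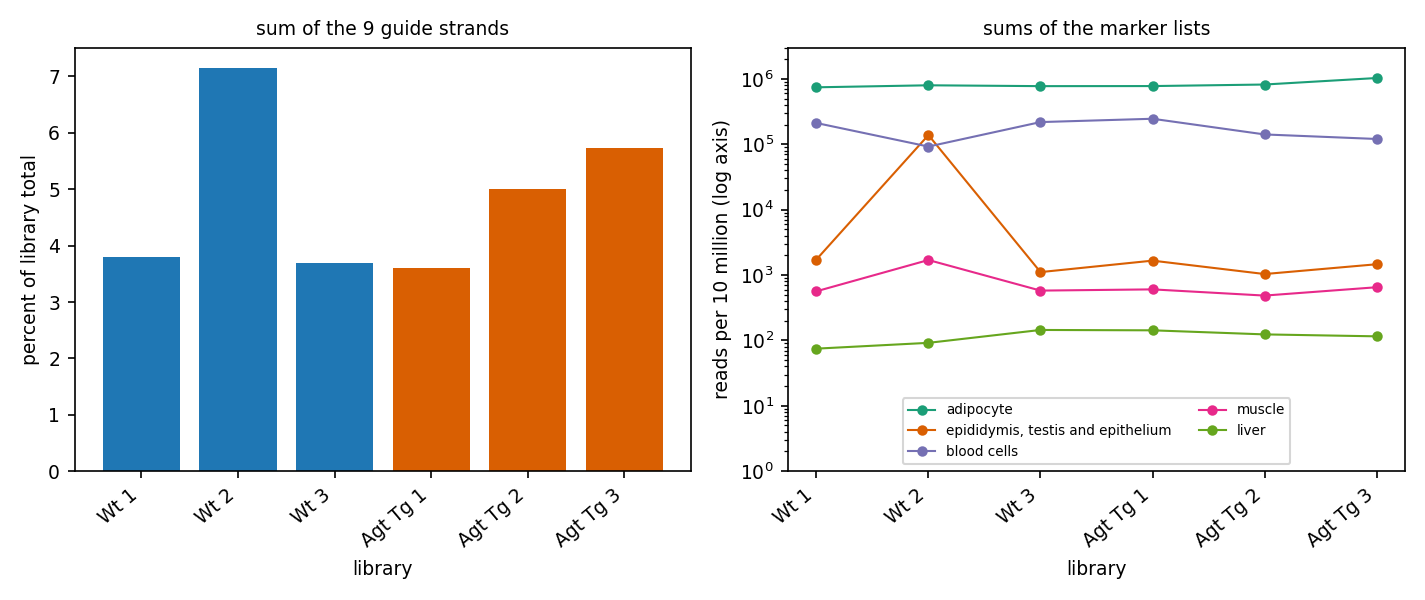
Left, reads on the 9 guide strands as percent of the library total in Wt (blue) and Agt Tg (orange) libraries. Right, summed reads per 10000000 of 5 marker lists on a log axis, where the epididymis, testis and epithelium list reaches 138567 in Wt replicate 2 and the blood cell list is lowest in that library.

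Outside the family, the miRNAs nearest to the summed level over the 6 libraries were miR-26b-5p (root mean square distance 0.12), miR-3960 (0.20), miR-1914-5p (0.22), miR-101-3p (0.22) and miR-30b-5p (0.23), where the median over miRNAs outside the family was 0.59. miR-26b-5p was at 13.45, 14.16 and 13.33 in Wt and 13.51, 13.65 and 14.02 in Agt Tg mice. miR-3960 was at the floor in 1 library and miR-1914-5p in 3, so that their distances rest partly on floor values. miR-191-5p, the reference miRNA of the study, ran against the family, lowest in Wt replicate 2 (16.58) and highest in Wt replicate 3 (17.41), with a log2 fold change of 0.01 (limma adjusted p = 0.987). Scaled to miR-191-5p, the summed level spanned 1.78 in log2 between the highest and lowest library, compared with 0.99 on the deposited values, with Wt replicate 2 still the highest.

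Some members are transcribed beside miRNAs of the miR-99, miR-100 and miR-125 families. Of 13 miRNAs listed for these clusters, both arms of miR-4763 included, 8 were tested. limma gave 0 of the 8 an adjusted p under 0.05 and 1 an unadjusted p under 0.05, compared with 9.12% of all 329, with 5 positive and 3 negative. Their median log2 fold change was 0.07, and that of all 329 was −0.19. The groups did not overlap in 2 of 8 neighbours and in 17.6% of all 329. Without Wt replicate 2 these counts were 0, 1 and 4 of 8, compared with 0, 48 and 130 of 329, and the median log2 fold change of the neighbours turned to −0.079.
miR-99b-5p, whose mature sequence ends 136 bases before Mirlet7e, was lowest in Wt replicate 2, at 17.35, compared with 17.64 to 18.16 in the other libraries. let-7e-5p was highest there, so that the gap between these neighbours ranged from −5.28 to −3.73 in log2. miR-125a-5p, on the other side of Mirlet7e, was also lowest in Wt replicate 2 (17.22). miR-100-5p, the neighbour of Mirlet7a-2, spanned 0.29 over the libraries while let-7a-5p spanned 1.19, and miR-99a-5p, the neighbour of Mirlet7c-1, spanned 0.40 while let-7c spanned 1.23. The gap between let-7f-5p and miR-98-5p, with neighbouring genes, spanned 0.50. Their distance after centring (0.16) was not the smallest, since let-7f-5p and let-7g-5p, with genes on different chromosomes, were 0.11 apart. The neighbour at an unadjusted p under 0.05 was miR-99b-3p, with a log2 fold change of −0.75 (95% confidence interval −1.35 to −0.16, limma adjusted p = 0.382). It was at 7.20, 7.28 and 7.29 in Wt and 6.61, 6.53 and 6.38 in Agt Tg mice, without overlap, and had a log2 fold change of −0.74 without Wt replicate 2. The other neighbour without overlap was miR-99a-5p, from 13.63 to 13.81 in Wt and from 13.87 to 14.03 in Agt Tg mice, with a log2 fold change of 0.21 (limma adjusted p = 0.616).

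The passenger strands ask if both arms of a precursor moved together. Their sequences are given for 4 stems read in all libraries, with bases 2 to 8 in capitals, and they have no seed in common with the guides.
let-7d-3p: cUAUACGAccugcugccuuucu
let-7b-3p: cUAUACAAccuacugccuuccc
let-7e-3p: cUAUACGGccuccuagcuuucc
let-7i-3p: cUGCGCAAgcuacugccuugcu
Of 10 passenger strands listed, 7 passed the filter and 5 were above the floor in all libraries, while let-7f-2-3p, let-7g-3p and miR-98-3p were at the floor in every library. let-7d-3p was by far the most abundant, between 11.81 and 12.57, so that its guide was only 1.97 higher in log2 on average. let-7i-3p had between 24 and 74 reads and its guide lay 9.14 higher. The mouse let-7a-1-3p and let-7c-2-3p are identical in sequence, so that let-7a-3p of the table could not be assigned to 1 gene.
Of the 7 passenger strands, 1 was highest in Wt replicate 2, where all 9 guides peaked. It was let-7a-2-3p, near the floor, with 13 reads there and at most 12 elsewhere. let-7a-3p was highest in Agt Tg replicate 3 (7.17), with 6.91 in Wt replicate 2. let-7b-3p was at 8.20, 7.79 and 8.75 in Wt and 8.22, 8.12 and 7.85 in Agt Tg mice, lowest in Wt replicate 2 where let-7b-5p was highest. let-7i-3p was at 6.09, 4.94 and 6.24 in Wt and 5.85, 5.29 and 5.01 in Agt Tg mice, likewise lowest in Wt replicate 2. let-7d-3p and let-7e-3p were both highest in Wt replicate 3, at 12.57 and 7.64.
Between genotypes, 0 of 7 passenger strands had a limma adjusted p under 0.05 and 1, let-7f-1-3p, an unadjusted p under 0.05 (9.12% of all 329), and their median log2 fold change was −0.21. let-7e-3p had −0.45 (95% confidence interval −1.11 to 0.20, limma adjusted p = 0.556) and all 3 Agt Tg values lay under the lowest Wt value. let-7f-1-3p had 0.74 (0.01 to 1.48, limma adjusted p = 0.529), but it was close to the floor, with 9 and 10 reads in Wt replicates 1 and 3, the floor in Wt replicate 2, and 24, 12 and 14 reads in the Agt Tg libraries. These were the 2 of 7 whose groups did not overlap, where 17.6% of all tested miRNAs did not. Without Wt replicate 2 it was 4 of 7, let-7e-3p, let-7d-3p, let-7i-3p and let-7f-1-3p, compared with 39.5% of all. let-7i-3p then went from −0.37 to −0.78 (limma adjusted p = 0.354), the median of the 7 was −0.38, and 0 of 7 were at an unadjusted p under 0.05. The log2 fold change of let-7f-1-3p stayed between 0.56 and 0.96 in every alternative that tested it. Its unadjusted p was over 0.05 with the replicate block (0.072), scaled to miR-191-5p (0.068) and in 5 of 6 fits with 1 library left out (0.058 to 0.138), and under 0.05 in the others (0.021 to 0.049).
The log2 ratio of the 5p over the 3p arm was fitted over the 78 stems whose arms both passed the filter. limma gave 0 of 78 stems (0%) an adjusted p under 0.05 and 5 (6.41%) an unadjusted p under 0.05, and 9 (11.5%) did not overlap between genotypes. For the 7 let-7 stems these counts were 0, 0 and 0. let-7i had ratios of 8.66, 10.27 and 8.18 in Wt and 8.85, 9.17 and 9.70 in Agt Tg mice, a span of 2.09 over the libraries. let-7e had 5.41, 6.34 and 5.46 in Wt and 5.74, 6.16 and 6.78 in Agt Tg mice, with a difference of 0.49 (95% confidence interval −0.31 to 1.29, limma adjusted p = 0.839). The ratios of let-7b, let-7d and let-7i were highest in Wt replicate 2 and lowest in Wt replicate 3. Of 5 let-7 stems with both arms above the floor in all libraries, 3 were highest in Wt replicate 2. In Wt replicate 3, 4 of them, let-7a included, were lowest. Among all 64 such stems these were 15 (23.4%) and 18 (28.1%). The 5 let-7 stems with both arms above the floor in all libraries had a median span of 1.29, compared with 1.00 over all 64 such stems.

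**Figure D5:**
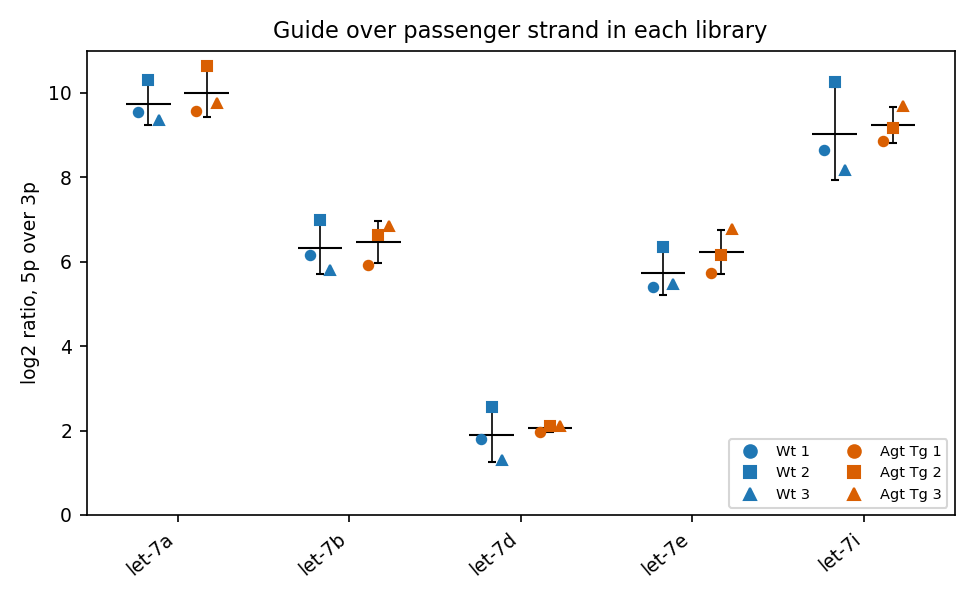
log2 ratio of the 5p over the 3p arm of 5 let-7 stems in each library, with mean and SD per genotype as bars. let-7d stands near 2 and the other stems between 5.41 and 10.65, and Wt replicate 2 is the highest library for let-7b, let-7d and let-7i.

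Without Wt replicate 2 the ratios of let-7e (difference 0.79, limma adjusted p = 0.454) and let-7i (0.82, limma adjusted p = 0.454) were at an unadjusted p under 0.05, as were 8 of 78 stems (10.3%). The groups then did not overlap in 4 of 7 let-7 stems, let-7a, let-7d, let-7e and let-7i, compared with 28 of 78 stems (35.9%). An unadjusted p under 0.05 was also reached by let-7a-2 without Agt Tg replicate 1 (0.67) and by let-7f-1 without Agt Tg replicate 3 (−1.10). It was reached by 7 and 5 of all 78 stems in these fits. The passenger strands of both stems were near the floor. let-7a-2-3p was at the floor in Agt Tg replicates 2 and 3, so that the Agt Tg ratios of let-7a-2 in that fit set its guide against the floor.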

How the data were processed

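Small RNA libraries of epididymal WAT from 3 Wt and 3 Agt Tg mice were analysed, grouped by the sample labels. The authors mapped reads to miRBase precursors and selected those on mature miRNAs; the sources used here do not state the release. The deposited log2 values give reads relative to 10000000 of the total, with a floor of 10. Above the floor, 1924 of 1924 linear values were whole reads within 0.02, which gave the totals; the floor stood for 6.39 to 10.6 reads.

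The filter required a value above the floor in 3 or more of 6 libraries, and what passed was tested with limma 3.58.1 in R 4.3.3 (moderated statistics, variance trend, genotype as the only term), adjusted by Benjamini-Hochberg over all 329 miRNAs or 78 stems. The test was checked on simulated data with 40 of 329 miRNAs changed 4-fold in each of 10 runs. At a limma adjusted p under 0.05 it recovered 90.25% of these and called 0.311% of the unchanged miRNAs. Smaller changes, and a library that stands apart from the others, were not simulated. Nothing states that libraries come from separate litters or days, and p-values measure the spread between these mice. Summed levels and shares were not tested. Sequences were taken from RefSeq (GRCm38.p6), hosts from GENCODE M21, and figures drawn with matplotlib 3.10.9 in Python 3.11.15.

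The miRNAs named were the let-7 and miR-98 family in every arm, neighbours in its gene clusters, miRNAs with its seed, the 5 nearest to the summed level, miR-191-5p and the marker lists (adipocyte; epididymis, testis and epithelium; blood cells; muscle; liver). The members and lists were chosen with earlier results of these data known. Alternatives were leaving out each library, TMM scaling (30% of log ratios and 5% of levels trimmed), scaling to miR-191-5p or to reads on listed miRNAs, the replicate block, log2(value + 1), no filter, a filter on all 6 libraries, no variance trend and limma-voom with TMM.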

Additional observations from a re-analysis of the deposited data

How the results depend on the processing

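Under every alternative run for them, leave-one-out fits included, 0 of 9 guide strands had a limma adjusted or unadjusted p under 0.05, and 0 miRNAs and 0 stems of the whole table an adjusted p under 0.05. The signs of the fold changes, all uncalled, were less stable. TMM scaling and limma-voom with TMM each gave 8 positive members in place of 5, turning let-7c (0.096 and 0.093), let-7b-5p (0.085 and 0.081) and let-7d-5p (0.055 and 0.055), and scaling to the reads on listed miRNAs turned let-7c (0.031) and let-7b-5p (0.021). A scaling shifts all miRNAs of a library by 1 constant. Scaled to miR-191-5p, the summed level spanned 1.78 in log2 in place of 0.99. The filter on all 6 libraries, with fewer miRNAs tested, left 9 miRNAs at the threshold of the study in place of 16, and 3 stems at an unadjusted p under 0.05 in place of 5. The other changes of setting turned no guide strand. The cause was not tested where none is named.

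With each library left out in turn, the number of positive members ran from 0 to 9, and the log2 fold change of let-7f-5p from −0.19 to 0.37, of let-7c from −0.24 to 0.33, of let-7a-5p from −0.11 to 0.42 and of let-7g-5p from −0.17 to 0.34. That of let-7i-5p ran from −0.35 to 0.043, of let-7b-5p from −0.15 to 0.16, of let-7d-5p from −0.19 to 0.14, of let-7e-5p from −0.12 to 0.24 and of miR-98-5p from −0.045 to 0.57. Among the passenger strands let-7b-3p (−0.41 to 0.073), let-7a-3p (−0.46 to 0.012) and let-7a-2-3p (−0.34 to 0.0089) also changed sign, as did the arm ratios of let-7a (−0.061 to 0.55), let-7b (−0.11 to 0.48), let-7d (−0.12 to 0.52) and let-7i (−0.23 to 0.82). Between 12 and 35 miRNAs were at the threshold of the study, 16 to 53 at an unadjusted p under 0.05, and 73 to 130 without overlap, with 0 to 2 members among these last. Between 2 and 8 stems were at an unadjusted p under 0.05, with 0 to 2 let-7 stems. The mean share of a member moved by less than its SD between mice in each case, and summing over every member gave the same shares, since all 9 passed the filter.

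The labels give both genotypes the numbers 1 to 3. With the number as a replicate block, limma left 17 miRNAs at the threshold of the study in place of 16, 26 in place of 30 at an unadjusted p under 0.05, and 4 stems in place of 5, with 0 members at either p. The deviations of same-numbered libraries from their genotype means correlated at 0.22, −0.18 and −0.21 over 329 miRNAs, and only the 2 libraries of number 1 correlated best with each other. The numbers are therefore not taken to pair the mice.

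For the guide strands, counting error was small beside the spread between the 3 mice of a genotype, while passenger strands near the floor of 6.39 to 10.6 reads were limited by depth. The libraries hold no measure of Agt.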
